A study of Macaca mulatta and Mus musculus with 5 samples.

Results

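The cells described here are B cells of the rhesus macaque meninges, the membranes around the brain, in which no transcript of IGHM, the gene of the IgM heavy chain constant region, was counted. They were chosen from raw counts of unique molecular identifiers (UMIs, tags that count each captured transcript once). A cell barcode was taken if it had at least 300 detected genes, at least 2 UMIs of the B-cell surface gene MS4A1 and 0 UMIs of IGHM. It also had to hold 0 UMIs of 9 further genes: FCER2, FCRL5, ITGAX, RAG1, RAG2, VPREB1, RGS13, CD3E and NKG7. This gave 239 barcodes, 116 from meninges channel 1 and 123 from meninges channel 2, of 8386 meningeal, 21012 macaque and 34959 barcodes in the whole series. Barcodes that met every other condition but held at least 1 UMI of IGHM are called IGHM-positive B cells, and there were 694 of them in meninges. The same conditions in spleen gave 649 IGHM-negative and 3178 IGHM-positive B cells.

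The study profiled single cells of meninges and spleen with 10x chemistry that reads the 3′ end of transcripts, and its title concerns B-lineage development in the meninges. All macaque samples are primary immune cells of female Chinese rhesus macaques aged 4 to 8 years, with no treatment or genetic change named. The design text writes the sort as CD45, CD11b and CD3 each followed by a dash, and 8000 cells were loaded per channel. There are 2 channels for each tissue, and the labels do not say whether they come from separate animals, so p-values here measure only the spread between channels, which may be technical. Tissue and anything that differed in handling the tissues cannot be told apart.

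A B cell first makes IgM and IgD. After antigen contact it can switch the constant region of its antibody to IgG, IgA or IgE, and its progeny can persist as memory B cells or become plasma cells. Memory B cells carry less of the naive transcription programme and more costimulatory and adhesion genes. Cells that have just been stimulated make immediate early genes, transcription factors such as the FOS, EGR and NR4A families, and then brakes such as dual-specificity phosphatases (DUSP genes) and regulators of G protein signalling (RGS genes). GPR183, also called EBI2, is an oxysterol receptor that guides B cells within lymphoid tissue.

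The 4 macaque channels held 19018146 to 21992144 UMIs in 4073 to 6786 barcodes. The IGHM-negative cells summed to 549164 and 559443 UMIs in the meninges channels and 931279 and 1100609 in the spleen channels. Their median depth was 4940.5 and 4518 UMIs per barcode in meninges, against 4057 and 4107 in the meningeal IGHM-positive cells. In spleen it was 3183 and 2649.5, against 1216 and 2399. No barcode had over 10% mitochondrial UMIs. Between 4 and 11 barcode sequences were shared by any 2 macaque libraries, and none of these was an IGHM-negative B cell in both.

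Of the meningeal barcodes that passed the gate apart from IGHM, 27.8% in channel 1 (95% exact binomial interval 23.6 to 32.4) and 23.8% in channel 2 (20.2 to 27.8) had no IGHM UMI. In spleen the share was 17.0% in both channels. When every barcode was thinned to 2000 UMIs before the gate, the shares were 28.5% and 28.5% in meninges and 30.7% and 27.2% in spleen. The order of the tissues in the unthinned shares was therefore not kept under this step. It also changed which barcodes passed the gate apart from IGHM, and barcodes with fewer than 2000 UMIs were left out. In meninges 627 and 677 barcodes passed, against 417 and 516 unthinned, and in spleen 1324 and 1896 against 1634 and 2193. The thinned shares are thus not those of the same barcodes at equal depth. The gate uses IGHM, so these shares are a description, and the intervals cover counting error only.

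The values around the edges of the gate were as follows. In meninges, 11 and 14 of the chosen barcodes had exactly 2 MS4A1 UMIs, while 21 and 40 barcodes that met the other conditions had 1 and stayed outside. DUSP4 was detected in 9.09% and 0% of those just inside on MS4A1 and in 4.76% and 7.50% of those just outside. The median depth was 940 and 1162.5 UMIs just inside and 3474 and 2231.5 just outside, so these shares were not taken at equal depth. Barcodes with exactly 1 IGHM UMI numbered 31 and 27, with DUSP4 in 25.8% and 22.2% of them. Among the other conditions, absence of ITGAX removed the most barcodes on its own, 72 and 62, followed by FCRL5 with 28 and 38.

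The barcodes carried the B-cell genes looked for. CD74, the invariant chain of MHC class II, had a UMI in 93.1% and 97.6% of them, against 74.6% and 74.0% of meningeal barcodes with at least 2 UMIs of NKG7, a gene of NK and cytotoxic T cells, and none of MS4A1. For BANK1, a B-cell scaffold protein, the shares were 76.7% and 72.4% against 4.99% and 5.96%. For CD79B, a signalling chain of the B-cell receptor, they were 66.4% and 70.7% against 4.48% and 4.90%. The median depths were 4940.5 and 4518 UMIs in the B cells and 3762 and 3766.5 in the NKG7 barcodes. TCL1A, a gene of naive B cells, had a UMI in 0 of 116 and 0 of 123 barcodes, which allows a share of up to 2.59% and 2.44% of such cells with a UMI. It was rare in the meningeal IGHM-positive cells too, with a UMI in 2 of 301 and 3 of 393. SDC1, a plasma cell surface gene, had no UMI in either class of either tissue.

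Class switching itself was not measured: IGHG, IGHA, IGHD, the light chain constant genes, CD79A and the memory gene CD27 were not analysed here. IGHE had a UMI in 2 of 116 and 0 of 123 barcodes, against 2.20% and 0.57% of meningeal NKG7 barcodes. JCHAIN, which joins polymeric IgM and IgA, had a UMI in 18.1% and 17.1% of the IGHM-negative cells. The cells are therefore called IGHM-negative here, which is what the rule measured. In meningeal NKG7 barcodes, 7.27% and 6.62% held a UMI of IGHM, so IGHM transcripts were also counted in barcodes of cells that should lack the gene.

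Some barcodes carried transcripts of other cell types. The 16 T, NK and myeloid genes looked for summed to 590 UMIs in channel 1 and 208 in channel 2. At least 1 of these UMIs was held by 41 of 116 and 34 of 123 barcodes, and at least 2 by 15 and 18. XCL1, a chemokine of NK and CD8 T cells, had 279 of its UMIs in 7 barcodes of channel 1. The complement gene CFD had 49 of its 58 UMIs in 1 barcode of that channel. In CPM (counts scaled to a common total) of all UMIs, the 9 listed NK and cytotoxic markers reached 237 and 177 in meningeal IGHM-negative cells, 46.8 and 66.7 in IGHM-positive cells, and 111 and 118 in splenic IGHM-negative cells. GZMA was at 0 in channel 1. The 8 listed T-cell markers reached 109 and 138 CPM, with CD247, CD4 and TRAT1 at 0, against 173 and 199.5 in meningeal IGHM-positive and 108 and 105 in splenic IGHM-negative cells. The 17 listed myeloid markers reached 492 and 200.2 CPM, with C1QB, CLEC9A and FCER1A at 0 in both channels. They reached 422 and 162 CPM in meningeal IGHM-positive and 66.6 and 77.2 CPM in splenic IGHM-negative cells. The 8 stromal markers were all at 0. Without the barcodes that held at least 2 of the other cells' UMIs, 11 named genes lost their call in the comparison of the classes, 4 in that of the tissues and 12 in the interaction, where TYROBP changed sign. In meninges that step left 101 of 116 and 105 of 123 IGHM-negative barcodes. It left 222 of 301 and 292 of 393 IGHM-positive ones, so it took the larger share from the IGHM-positive class. No doublet caller was run.

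GPR183 was the most widely detected of the 4 genes that mark these cells, with a UMI in 77.6% and 82.1% of barcodes of the meningeal channels. The share was 49.2% and 48.6% in meningeal IGHM-positive cells, 21.3% and 21.2% in splenic IGHM-negative cells, and 15.8% and 13.3% in meningeal NKG7 barcodes. Thinned to 2000 UMIs, it stood at 76.8% and 76.0% in the meningeal IGHM-negative cells. As a normalised level, in CPM of the summed cells of a channel, GPR183 was 1853 and 2031 in meningeal IGHM-negative cells, 646 and 661 in meningeal IGHM-positive cells, 107 and 120.4 in splenic IGHM-negative cells and 92.8 and 93.8 in splenic IGHM-positive cells. The meningeal IGHM-negative cells were the highest in both channels, and no 2 of the first 3 groups overlapped. Channels also did not overlap for 51.4% of all genes tested between the classes in meninges. Between the tissues in IGHM-negative cells this share was 59.7%, so the lack of overlap is a description only.

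ZNF331, a zinc finger transcription factor, had a UMI in 47.4% and 47.2% of the meningeal IGHM-negative barcodes, in 24.3% and 22.9% of the meningeal IGHM-positive ones and in 3.25% and 2.42% of the splenic IGHM-negative ones. Its level was 452 and 288 CPM, against 142 and 149.8 CPM in meningeal IGHM-positive cells and 10.0 and 8.79 CPM in splenic IGHM-negative cells. The 2 splenic classes overlapped, at 8.99 and 10.8 CPM in the IGHM-positive one.

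RGS16, a brake on G protein signalling, had a UMI in 24.1% and 26.0% of the meningeal IGHM-negative barcodes, against 4.98% and 5.34% of the IGHM-positive ones and 13.2% and 14.0% of NKG7 barcodes. Its level was 214 and 180.5 CPM in meningeal IGHM-negative cells, 48.7 and 27.8 CPM in meningeal IGHM-positive cells, and 6.00 and 11.4 CPM in splenic IGHM-negative cells. It was thus present in cytotoxic cells of the same tissue as well.

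DUSP4, a phosphatase that switches off MAP kinases, had a UMI in 27.6% and 22.8% of the meningeal IGHM-negative barcodes and in 3.99% and 2.80% of the IGHM-positive ones. It was at 1.81% and 0.81% in splenic IGHM-negative cells and 2.62% and 3.84% in meningeal NKG7 barcodes. Thinned to 2000 UMIs the meningeal IGHM-negative share was 16.2% and 15.4%. Its level was 117 and 106 CPM, against 32.5 and 17.1 CPM in meningeal IGHM-positive cells and 5.0 and 2.64 CPM in splenic IGHM-negative cells. These 4 genes were proposed as markers with results of these data known, so their differences are given as a description. Where they are counted in a list or a call is given for them, that is not independent support.

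**Figure D1:**
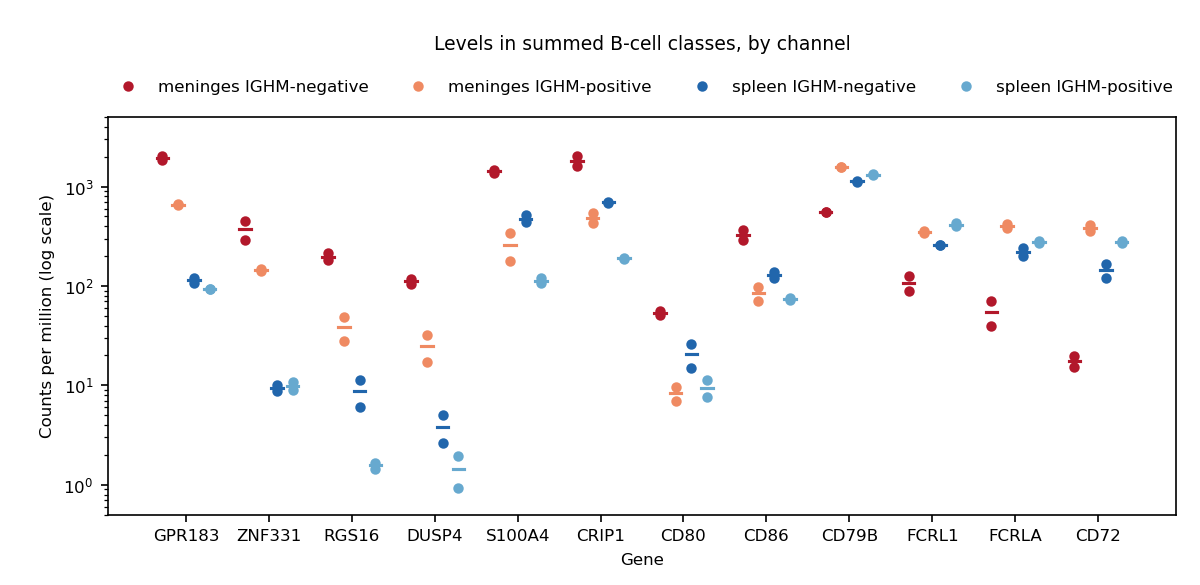
Levels of 12 genes in the summed cells of each class, in CPM on a log scale; each point is 1 channel and each bar the mean of 2 channels. The 4 marker genes, S100A4, CRIP1, CD80 and CD86 are highest in meningeal IGHM-negative cells, and CD79B, FCRL1, FCRLA and CD72 are lowest there.

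The 4 markers were spread unevenly over the cells. All 4 had a UMI in 11 and 9 barcodes, and none of them in 21 and 17, whose median depth was 2798 and 3246 UMIs. Of the barcodes with DUSP4, 29 of 32 in channel 1 and 27 of 28 in channel 2 also had GPR183, where the shares of the 2 genes multiplied would give 24.8 and 23.0. In splenic IGHM-negative cells no barcode held 3 or 4 of the markers, and 207 of 277 and 277 of 372 held none.

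Detection of DUSP4 also followed the number of IGHM UMIs beyond the threshold of the gate. DUSP4 was detected in channel 1 in 27.6% of barcodes with 0 IGHM UMIs, 25.8% with 1, 22.2% with 2, 1.28% with 3 to 9 and 0.55% with 10 or more. In channel 2 the shares were 22.8%, 22.2%, 5.88%, 2.27% and 0.77%. Barcodes with 1 IGHM UMI thus had nearly the DUSP4 share of those with none, on 31 and 27 barcodes.

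S100A4, a calcium-binding protein of memory cells, went from 63.8% and 65.0% at 0 IGHM UMIs to 48.4% and 63.0% at 1 and 19.7% and 18.8% at 10 or more. CD72, an inhibitory co-receptor of B cells, went the other way. It was detected in 5.17% and 5.69% of barcodes at 0, in 12.9% and 14.8% at 1 and in 68.9% and 70.1% at 10 or more. The median depth at 10 or more IGHM UMIs, 4350 and 4356 per barcode, was below that at 0.

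**Figure D2:**
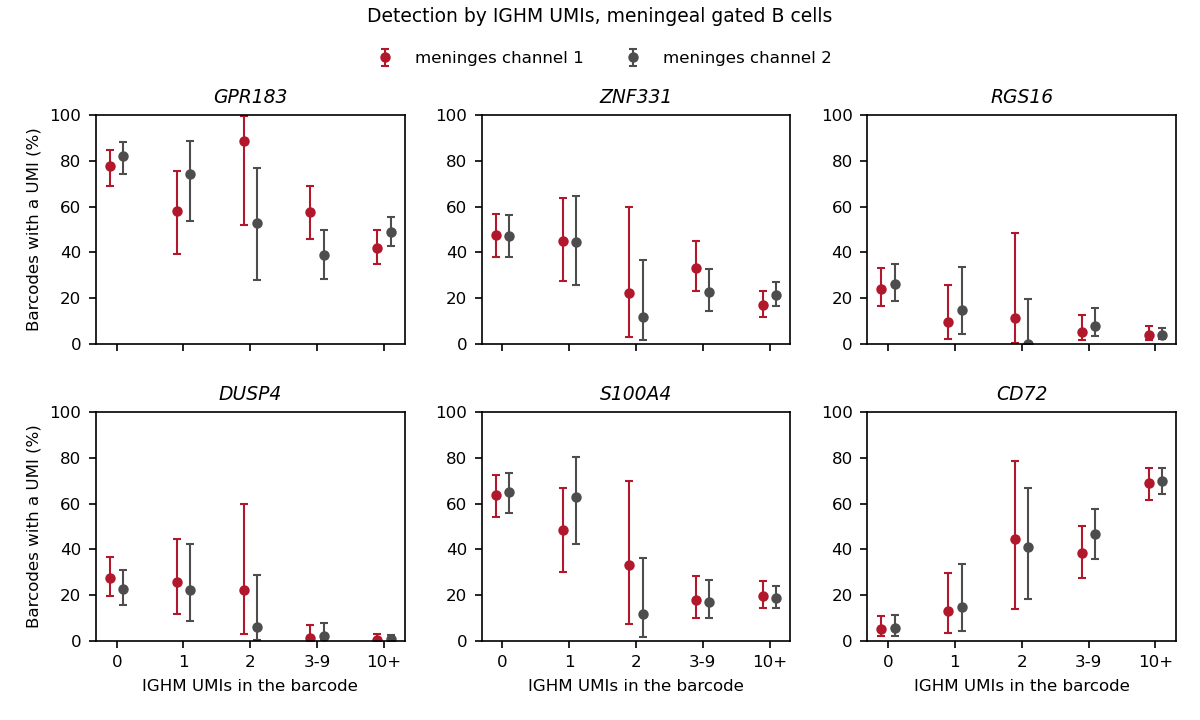
Share of meningeal B-cell barcodes with a UMI of 6 genes (y axis, percent) by the number of IGHM UMIs in the barcode (x axis), for both channels, with 95% exact binomial intervals that cover counting error only. DUSP4 and S100A4 are highest at 0 and 1 IGHM UMIs and CD72 is highest at 10 or more. The interval is wide at 2 IGHM UMIs, which holds 9 and 17 barcodes.

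The next comparison asks how these cells differ from the IGHM-positive B cells of the same channels. In edgeR's quasi-likelihood test on 8 sums of cells, with the channel as a block, 898 of 8135 genes differed between the classes in meninges at an adjusted p under 0.05, which is 11.0%. Of these, 507 were higher in IGHM-negative cells (6.23% of genes tested) and 391 lower (4.81%). DESeq2 called 344, all among the 898. A difference is given below as log2 of the IGHM-negative over the IGHM-positive level, with its standard error.

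Genes of memory B cells were higher in the IGHM-negative cells. Of 20 on the list, 17 are in the tables and 16 were tested, of which 12 rose and none fell, with a median difference of 1.49 against −0.02 over all genes. With DESeq2 10 of 16 rose, and without meninges channel 2 it was 9. S100A4 stood at 1468 and 1369 CPM against 338 and 178 CPM, a difference of 2.52 ± 0.15 (adjusted p = 1.89e-08). CRIP1, a LIM protein enriched in memory cells, stood at 1609 and 2016 CPM against 541 and 434 CPM (1.90 ± 0.12, adjusted p = 4.21e-08). In both genes the classes were far apart in each channel.

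CD80, a costimulatory ligand for CD28 on T cells, was at 51.5 and 55.7 CPM in IGHM-negative and 9.74 and 6.95 CPM in IGHM-positive cells (2.70 ± 0.40, adjusted p = 0.000244). It had a UMI in 18.1% and 15.4% of IGHM-negative and 3.65% and 2.80% of IGHM-positive barcodes. NKG7 barcodes had it at 5.58% and 5.23%. TNFRSF13B, the receptor TACI for the survival factors BAFF and APRIL, rose by 1.27 ± 0.30 (47.6 and 38.4 CPM against 22.7 and 13.3 CPM, adjusted p = 0.0104). CD44, a hyaluronan receptor, rose by 0.99 ± 0.11 and AIM2, a DNA sensor found in memory B cells, by 0.76 ± 0.11. SSPN, TOX, S100A10, ITGB1 and ANXA2 also rose. CD70, the ligand of CD27, was higher by 2.00 ± 0.47 (adjusted p = 0.00936), a call that was lost with DESeq2 (adjusted p = 0.197) and without meninges channel 2 (1.88, adjusted p = 0.218).

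Genes of naive B cells were mostly lower. Of 11 tested, 6 fell and none rose, with a median of −1.39. CD72 showed the largest fall among those with UMIs in both classes. It stood at 19.8 and 15.4 CPM against 356 and 409.5 CPM, a difference of −4.44 ± 0.23 (adjusted p = 7.1e-09). FCRL1, an Fc receptor-like protein of naive B cells, was at 125 and 88.3 CPM against 341 and 354 CPM (−1.71 ± 0.15). BACH2, a repressor that restrains differentiation to effector cells, was at 5.94 and 11.5 CPM against 39.8 and 55.0 CPM (−2.43 ± 0.37, adjusted p = 0.000312). FOXP1, a transcription factor of naive B cells, fell by 1.89 on the log2 scale. YBX3 had 0 UMIs in IGHM-negative and 54 in IGHM-positive cells, at least 6.56-fold lower with a floor of 3 counts over both channels, and lost its call without meninges channel 1 (adjusted p = 0.0584). SATB1, a chromatin organiser, was at −1.02 ± 0.23 and lost its call without meninges channel 2 (−0.78, adjusted p = 0.127).

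The co-receptors and signalling proteins of the B-cell receptor were lower as well. Of 20 tested, 10 fell and 1 rose, with a median of −0.42. The falls numbered 6 without meninges channel 1, 5 without meninges channel 2 and 4 with DESeq2. CD79B was at 559 and 549 CPM against 1572 and 1584 CPM (−1.51 ± 0.09, adjusted p = 1.62e-08). FCRLA, an intracellular Fc receptor-like protein, was at 39.6 and 71.0 CPM against 378 and 425 CPM (−2.86 ± 0.17, adjusted p = 1.68e-08). CR2, the complement receptor CD21, fell by 1.69 ± 0.22, and by 1.10 without meninges channel 2. CD22, an inhibitory co-receptor, was at −0.52 ± 0.14 (adjusted p = 0.0239). DAPP1, an adaptor downstream of PI3 kinase, was the gene that rose, at 143 and 154 CPM against 70.6 and 48.0 CPM (1.34 ± 0.18).

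Of 16 tested transcription factors of the B lineage other than the marker ZNF331, 4 fell and 1, BHLHE40, rose, with a median of −0.13. PAX5, which maintains B-cell identity, fell by 1.30 ± 0.25 (adjusted p = 0.00207). IRF4, which rises on activation and drives plasma cell differentiation, fell by 0.82 ± 0.12 (adjusted p = 0.00025). The plasma cell regulator PRDM1 was at 11.9 and 11.5 CPM against 2.44 and 3.16 CPM, and its difference did not pass the test (2.03 ± 0.70, adjusted p = 0.0762). CD38, an ectoenzyme high on plasma cells and germinal centre cells, fell by 1.85 ± 0.15. None of the 9 tested class II antigen presentation genes passed the test by edgeR or DESeq2, with 3 at an unadjusted p under 0.05, with MAMU-DRA, a class II alpha chain, at 0.08 ± 0.07 and CD74 at −0.05 ± 0.07. By an unadjusted p under 0.05, 23.1% of all genes differed.

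**Figure D3:**
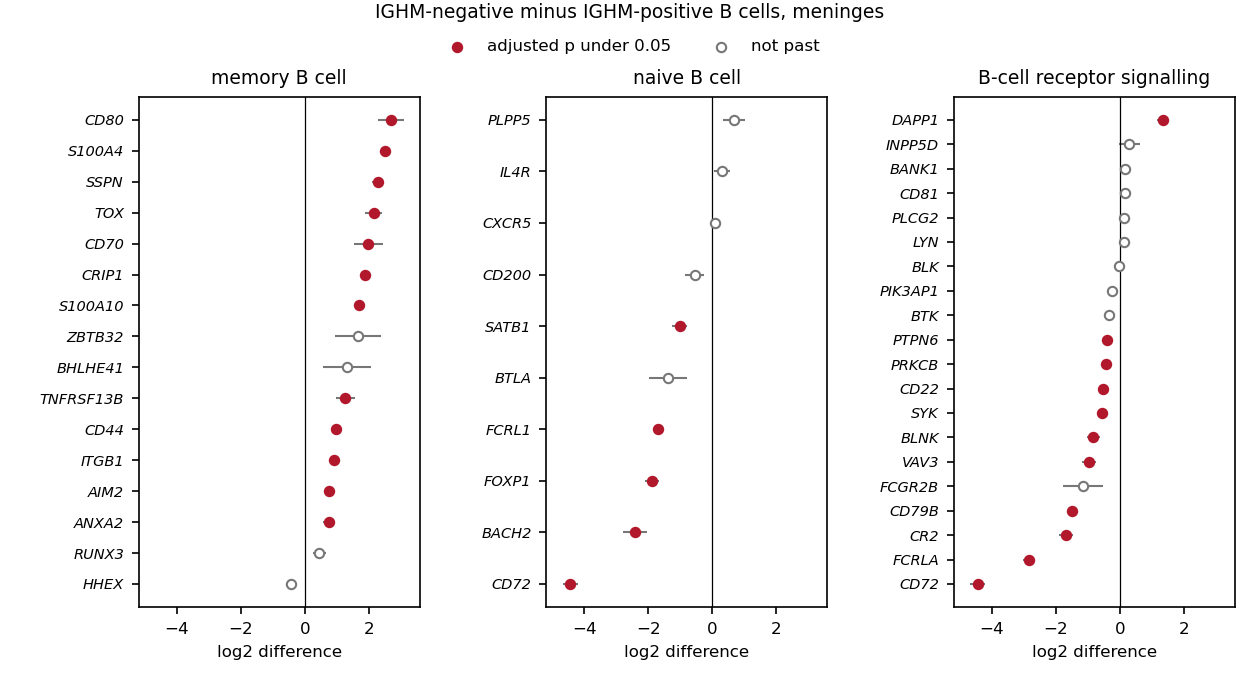
Difference between IGHM-negative and IGHM-positive meningeal B cells (x axis, log2, with standard errors) for tested genes of 3 lists that had a UMI in the IGHM-negative cells. Filled points passed an adjusted p under 0.05. Of the memory genes 12 lie to the right of 0 and pass, while CD72, FCRLA and BACH2 lie far to the left. CD72 is on both the naive and the receptor list.

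Genes of positioning and retention rose in 7 of 17 tested and fell in none, with a median of 0.32, and in 6 of 16 without the marker GPR183, with a median of 0.31. Without meninges channel 1, 7 rose and 2 fell. Besides GPR183 (1.57 ± 0.09, described above), CREM, a cyclic AMP response factor, was at 717 and 931 CPM against 283 and 281 CPM (1.55 ± 0.11, adjusted p = 1.09e-07). ITGB7, an integrin chain used for homing to mucosal and inflamed tissue, was at 83.2 and 73.0 CPM against 25.2 and 22.8 CPM (1.70 ± 0.25, adjusted p = 0.000209). CCR7, the receptor for lymph node chemokines, was at 0.44 ± 0.12 (adjusted p = 0.0204). CXCR4, CD69 and S1PR1, which hold cells in or release them from tissue, did not pass, at −0.23 ± 0.13, −0.38 ± 0.21 and 0.32 ± 0.21.

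Costimulation genes rose in 5 of 10 tested and fell in 2. Without meninges channel 2, and with DESeq2, 3 rose. CD86, the second CD28 ligand, was at 289 and 365 CPM against 97.4 and 70.8 CPM (1.98 ± 0.16, adjusted p = 7.09e-07). It had a UMI in 50.9% and 55.3% of IGHM-negative and 17.9% and 13.5% of IGHM-positive barcodes, with 0.76% and 0.74% in NKG7 barcodes. TNFRSF1B, a receptor of tumour necrosis factor, rose by 1.49 ± 0.18. CD83, an activation marker that stabilises class II at the surface, fell by 0.41 ± 0.09 (1288 and 1465 CPM against 1654 and 2006 CPM).

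Immediate early genes did not move as a block between the classes. Of 21 tested, 7 rose and 3 fell. Without meninges channel 1 it was 5 and 4, and without channel 2 it was 10 and 2. NR4A2, an orphan nuclear receptor, was at 1001 and 972 CPM against 319 and 301 CPM (1.67 ± 0.09, adjusted p = 1.35e-08). FOS rose by 0.92 ± 0.12, NR4A3 by 0.87 ± 0.11 and NR4A1 by 0.83 ± 0.10. MYC, a driver of growth, was at 21.8 and 40.3 CPM against 115 and 149.8 CPM (−2.09 ± 0.22). ZFP36L1, which destabilises mRNAs, fell by 1.38 ± 0.11. Of 12 tested brakes other than DUSP4 and RGS16, 2 rose and 1 fell. SOCS3, an inhibitor of cytokine signalling, rose by 1.74 ± 0.20 (125 and 175 CPM against 40.6 and 49.3 CPM). In the NF-kB feedback list 4 of 13 fell and 1 rose, and 2 fell without meninges channel 2 and with DESeq2. NFKBID, an atypical inhibitor of NF-kB, fell furthest, at −1.48 ± 0.11. TNFAIP3, a deubiquitinase that restrains NF-kB, was at −1.22 ± 0.22, at −2.01 without meninges channel 1 and at −0.52 (adjusted p = 0.0752) without channel 2.

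Among the largest rises beyond these lists were KIF21A (2.58 ± 0.28), a kinesin motor, TESC (2.45 ± 0.18), a calcium-binding protein, SCIMP (2.38 ± 0.20), an adaptor at the immune synapse, and TSPO (2.26 ± 0.15), a mitochondrial membrane protein. GLIPR2 (2.25 ± 0.24) and CENPF (2.20 ± 0.18), a kinetochore protein, rose too. TESC stood at 226 and 213 CPM against 52.8 and 29.7 CPM, and SCIMP at 123 and 146 CPM against 25.2 and 26.5 CPM. Channels that do not overlap between the classes were a condition for naming these 6 genes, so this is not a result about them. The channels did not overlap, in either direction, for 51.4% of all genes tested.

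CCL5, a chemokine of cytotoxic T cells and NK cells, was at 200.1 and 161 CPM against 40.6 and 39.8 CPM, a difference of 2.16 ± 0.19 and of 2.11 without the barcodes that held at least 2 UMIs of other cell types. GZMM, a granzyme, was at 2.29 ± 0.32 and at 1.95 without those barcodes. XCL1 was at 553 and 121 CPM against 0.81 and 44.2 CPM (3.55 ± 0.63). It moved to 1.45 without meninges channel 1 and to 9.33 without meninges channel 2, and DESeq2 did not call it (adjusted p = 0.143). The cytotoxic genes KLRB1 (3.71 ± 0.42) and GZMK (3.65 ± 0.56) were called too. Without the barcodes that held other cells' UMIs, XCL1, KLRB1 and GZMK had too few counts to be tested.

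The largest falls were of genes nearly absent from the IGHM-negative cells. AKAP12, a scaffold for protein kinase A, had 0 UMIs in the 239 barcodes and 826 in the 694 IGHM-positive ones, which is at least 100.3-fold lower against a floor of 3 counts over both channels. DEPP1, a gene induced by FOXO factors, had 3 against 437 UMIs, a ratio of 53.1 with a counting interval of 18.0 to 258, and its fitted difference of −5.69 became −11.35 without meninges channel 2. The metallothionein MT1E, which binds zinc and copper, was at 37.6 and 46.1 CPM against 668 and 811 CPM (−4.14 ± 0.15, adjusted p = 2.91e-11). WIF1 (−3.94 ± 0.45), a WNT inhibitor, AEBP1 (−3.81 ± 0.52) and CALY (−2.84 ± 0.22) were lower in the meningeal IGHM-negative cells as well. NRGN, with 2 against 122 UMIs, gave a ratio of 22.2 (6.02 to 186), and its fitted difference of −4.44 became −9.55 without meninges channel 1. FAM81A was at −2.75 ± 0.55 and at −9.02 without meninges channel 1.

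Genes of early B-lineage cells were all lower, although barcodes with RAG1, RAG2 or VPREB1 are outside both classes. Of 5 tested, 5 fell, with a median of −2.83. VPREB3, a partner of the pre-B-cell receptor, was at 23.8 and 30.7 CPM against 169 and 219.9 CPM (−2.83 ± 0.20, adjusted p = 1.09e-07). SOX4, a factor of early lymphoid cells, was at 17.8 and 21.1 CPM against 56.8 and 104 CPM (−2.04 ± 0.29). ARPP21 had 1 UMI against 164, a ratio of 59.8 (10.6 to 2375). CDK6, a cell cycle kinase, fell by 2.82 ± 0.38.

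The list of atypical B cells, whose genes ITGAX and FCRL5 the gate removes, had 5 rises and no fall among 7 tested. Without meninges channel 2, and with DESeq2, 2 rose. FGR, a SRC-family kinase, was at 1.5 ± 0.37 and at 0.53 without meninges channel 2 (adjusted p = 0.57), where SOX5 went from 1.16 to 0.49. FCRL4 had no UMI in the meningeal IGHM-negative cells.

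The comparison of the same class between tissues asks how meningeal IGHM-negative cells differ from splenic ones. edgeR called 1417 of 6501 genes, which is 21.8%, with 865 higher in meninges (13.3%) and 552 lower (8.49%). DESeq2 called 595, all among them. With library totals in place of TMM scaling the median of all genes moved from −0.02 to −0.20, and 39.7% of 1486 calls were higher against 61.0% of the 1417, so small differences in either direction depend on the scaling. Sums over cells also cannot tell fewer cells with a transcript from fewer transcripts per cell.

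Immediate early genes were far higher in meninges. Of 20 tested, 19 rose and none fell, with a median of 3.75 against −0.02 over all genes, and between 18 and 20 rose under each alternative computed for the lists. NR4A2 stood at 1001 and 972 CPM in meninges and 9.0 and 7.03 CPM in spleen, a difference of 6.92 ± 0.19 (adjusted p = 2.32e-17). NR4A1 stood at 899.5 and 866 CPM against 23.0 and 12.3 CPM (5.65 ± 0.19). FOS stood at 2308 and 1563 CPM against 48.0 and 59.8 CPM (5.15 ± 0.18). In these 3 genes the lower meningeal channel exceeded the higher splenic one by more than an order of magnitude. Channels that do not overlap between the tissues were a condition for naming these 3 genes among the largest rises. The tissues did not overlap, in either direction, in 59.7% of all genes tested. NR4A3 had 399 UMIs in meninges and 2 in spleen, a ratio of 415 (counting interval 114 to 3440). FOSL2 had 65 UMIs in meninges and 0 in spleen, at least 45.1-fold higher against a floor of 3 counts over both channels. MYC was the tested member that did not pass (0.15 ± 0.35, adjusted p = 0.818).

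The same was seen outside these cells. NR4A2 had a UMI in 73.3% and 67.5% of the meningeal IGHM-negative barcodes and in 73.7% and 74.4% of meningeal NKG7 barcodes, against 2.17% and 2.15% and 6.72% and 7.64% in spleen. In IGHM-positive B cells, where 2266 of 9059 genes differed between the tissues (25.0%, with 15.4% higher and 9.64% lower in meninges), all 21 tested immediate early genes rose, with a median of 3.30. The part of tissue handling in these values was not tested.

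Of 11 tested brakes other than the markers DUSP4 and RGS16, 6 rose and none fell, with a median of 3.16. They were SOCS3, RGS1, DUSP2, RGS2, DUSP1 and DUSP5. SOCS3 stood at 125 and 175 CPM against 6.00 and 5.27 CPM (4.70 ± 0.32, adjusted p = 9.29e-11). RGS1, which dampens chemokine receptors, stood at 434 and 267 CPM against 23.0 and 22.9 CPM (3.92 ± 0.23). The differences of the 4 markers were 4.83 ± 0.36 for DUSP4, 4.45 ± 0.27 for RGS16, 5.28 ± 0.27 for ZNF331 and 4.09 ± 0.12 for GPR183, given here as a description. USP36, a deubiquitinase, at 561 and 474 CPM against 19.0 and 20.2 CPM, was among the largest rises outside the lists (4.71 ± 0.18).

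**Figure D4:**
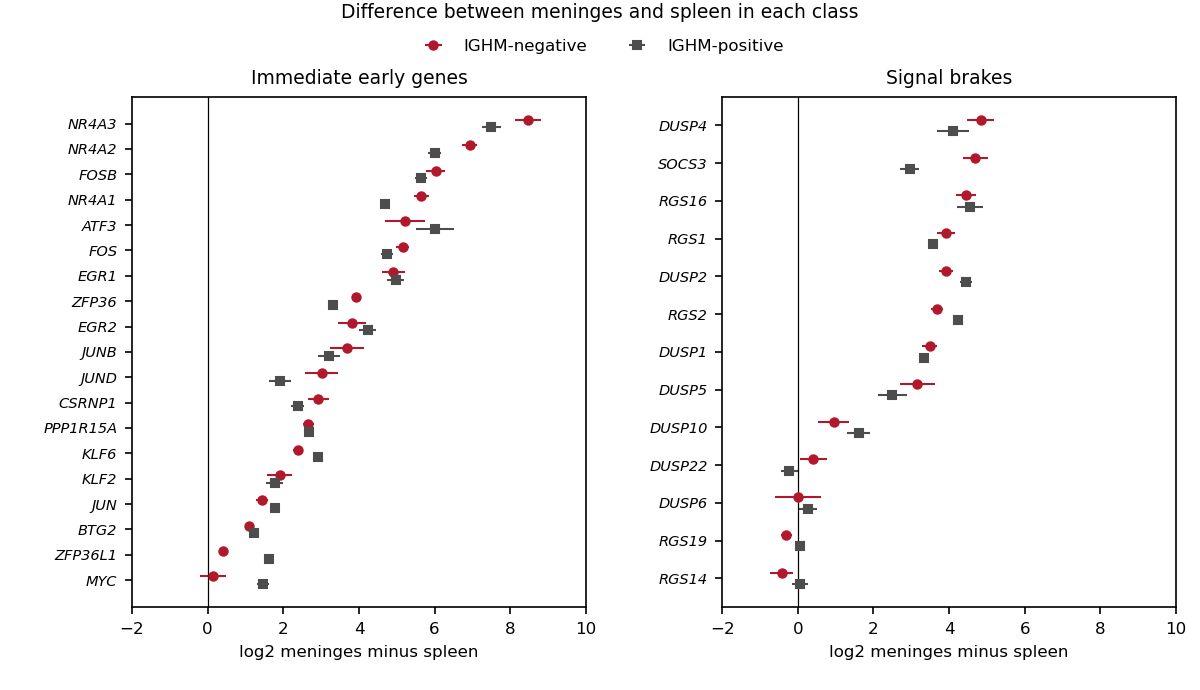
Difference between meninges and spleen (x axis, log2, with standard errors) in IGHM-negative (circles) and IGHM-positive (squares) B cells, for immediate early genes and signal brakes tested in both classes; FOSL2, at 0 in splenic IGHM-negative cells, is left out. SOCS3, RGS1, NR4A2 and FOS lie far to the right of 0 in both classes, DUSP4 and RGS16 are markers shown as a description, and the NR4A3 value of IGHM-negative cells rests on 2 splenic UMIs.

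Genes of positioning rose in 10 of 17 tested and fell in 2, and rose in 8 with DESeq2. Without the marker GPR183, 9 of 16 rose. CCR7 stood at 267 and 349 CPM against 18.0 and 22.9 CPM (3.9 ± 0.21). CD69, which retains lymphocytes in tissue by opposing S1PR1, stood at 1289.8 and 572 CPM against 73.0 and 56.3 CPM (3.85 ± 0.26). S1PR1, the receptor for exit into blood and lymph, was also higher in meninges, at 67.4 and 74.9 CPM against 31.0 and 29.9 CPM (1.22 ± 0.26, adjusted p = 0.00141). The falls were of ITGA1, a collagen-binding integrin chain (−2.37 ± 0.53, and −3.90 without meninges channel 1), and ITGAE, the epithelial-binding integrin chain CD103 (−0.63 ± 0.19). Among IGHM-positive cells 8 of 17 tested positioning genes other than GPR183 rose in meninges and 4 fell.

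Costimulation genes rose in 8 of 9 tested, with a median of 2.70, and in 5 with DESeq2. CD83 stood at 1288 and 1465 CPM against 142 and 156 CPM (3.20 ± 0.12, adjusted p = 4.43e-15). CD274, the inhibitory ligand PD-L1, rose by 3.53 ± 0.64, CD70 by 2.70 ± 0.51 and CD86 by 1.34 ± 0.15. CD80 was at 1.35 ± 0.33 (adjusted p = 0.00373) and lost its call with DESeq2 (adjusted p = 0.0776) and without the barcodes that held germinal centre transcripts (adjusted p = 0.0547). In the NF-kB feedback list 9 of 12 rose, among them NFKBID (3.30 ± 0.19), TNFAIP3 (3.07 ± 0.33) and NFKBIA (2.36 ± 0.14). IRF4 was higher in meninges too, at 170.4 and 188 CPM against 19.0 and 16.7 CPM (3.32 ± 0.23). It was 1 of 3 rises among 15 tested transcription factors of the B lineage other than ZNF331. The 4 falls there were of BCL11A, PAX5, IKZF1 and IKZF3.

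Survival genes rose in 7 of 12 tested, led by PIM3, a kinase (4.32 ± 0.32), and BCL2A1, an inhibitor of cell death (3.30 ± 0.16). Of the growth factors and cytokines, AREG, an EGF receptor ligand, had 65 UMIs in meninges and 2 in spleen, a ratio of 67.6 (18.0 to 570). TGFB1 rose by 2.34 ± 0.17 and CCL5 by 2.83 ± 0.22, which was 2.78 without the barcodes that held other cells' UMIs. LTB, which organises lymphoid tissue, fell by 0.70 ± 0.13, and by 0.45 without meninges channel 2, and lost its call without the barcodes that held germinal centre transcripts (adjusted p = 0.066). Heat shock genes rose in 9 of 10 tested, among them DNAJB1 (3.07 ± 0.17) and HSPH1 (2.70 ± 0.17), and in 8 with DESeq2. These lists rose in IGHM-positive cells as well. There, 8 of 11 tested costimulation genes, 11 of 13 of NF-kB feedback, 10 of 14 of survival and 10 of 12 of heat shock rose, and none fell. CD83 rose by 3.04 ± 0.13, IRF4 by 2.80 ± 0.14 and BCL2A1 by 3.07 ± 0.14 in that class.

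Memory genes moved in both directions between the tissues, with 8 rises and 2 falls among 14 tested and 5 rises with DESeq2. S100A4 (1.57 ± 0.11) and CRIP1 (1.38 ± 0.11) were higher in meninges. AIM2 was lower, at 380.4 and 415 CPM against 631 and 703 CPM (−0.75 ± 0.12), and so was HHEX, a transcription factor of memory B cells (−0.81 ± 0.16). TNFRSF13B did not pass (0.27 ± 0.29, adjusted p = 0.581).

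The B-cell receptor list had 10 falls and 3 rises among 19 tested, and 6 falls with DESeq2. CD72 stood at 19.8 and 15.4 CPM against 121 and 165 CPM (−3.02 ± 0.29, adjusted p = 2.36e-08). CR2 fell by 2.12 ± 0.22, FCRLA by 1.99 ± 0.21, CD22 by 1.19 ± 0.15 and CD79B by 1.02 ± 0.11. LYN, the SRC-family kinase that starts and also restrains receptor signalling, rose by 1.24 ± 0.13. In the naive list CD72, BACH2 (−2.02 ± 0.44), CD200 and FCRL1 (−1.29 ± 0.17) fell, while CXCR5 rose.

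Germinal centre genes fell in 7 of 8 tested and cell cycle genes in 12 of 15. MYBL1, a transcription factor of germinal centre cells, had 3 UMIs in meninges and 161 in spleen, a ratio of 25.8 (8.67 to 126). ELL3, an elongation factor, and NUGGC, a nuclear GTPase of germinal centre cells, fell by 2.87 ± 0.30 and 2.71 ± 0.28. MKI67, which marks dividing cells, stood at 3.96 and 17.3 CPM against 156 and 122 CPM (−3.68 ± 0.35, adjusted p = 2.24e-08). CENPF was the cell cycle gene that rose (2.24 ± 0.18). The gate removes only RGS13 among germinal centre genes. Without barcodes that held transcripts of 7 further ones, 1 of 2 tested germinal centre genes and 0 of 4 tested cell cycle genes were lower, and 640 genes differed in all. That step left 165 of 277 and 216 of 372 splenic IGHM-negative barcodes, and 87 of 116 and 103 of 123 meningeal ones. With all barcodes kept, 3 cell cycle genes were lower by DESeq2. Among IGHM-positive cells 6 of 9 tested germinal centre genes and 12 of 17 tested cell cycle genes were lower in meninges by edgeR, with 1 higher in each list.

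Markers of other cell types moved with the tissue as well. In IGHM-negative cells, both tested myeloid markers were higher in meninges, TYROBP by 2.91 ± 0.34 and LYZ by 1.12 ± 0.27, which DESeq2 did not call (adjusted p = 0.0933). Of 4 tested NK and cytotoxic markers 3 rose, GZMK, KLRB1 and GZMB, and of 4 tested T-cell markers 2 rose, TRAC and CD2. LYZ was at 1.14 without the barcodes that held other cells' UMIs, and TYROBP had too few counts to be tested there. The part of other cell types in these differences was not tested.

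Of the other groups, 4 of 14 interferon genes were lower, and none by DESeq2 or without spleen channel 1. In class II presentation 3 of 9 rose and 2 fell. MAMU-DRA stood at 10665 and 11196 CPM against 7927 and 8635 CPM (0.40 ± 0.06, adjusted p = 5.21e-05), and CD74 did not pass (0.18 ± 0.07, adjusted p = 0.0758). Genes of glycolysis and glucose uptake rose in 3 of 12 tested and fell in 1, while 8 did not pass, with a median of 0.32. SLC2A3, a glucose transporter, rose by 2.39 ± 0.17, and PFKFB3, which drives glycolysis, by 2.79 ± 0.42. The fall was of the glycolytic enzyme GAPDH (−0.40 ± 0.11, adjusted p = 0.012).

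Whether a tissue difference is larger in IGHM-negative than in IGHM-positive cells was tested as an interaction. It was past the threshold for 181 of 8135 genes, which is 2.22%, with 73 more positive in IGHM-negative cells (0.897%) and 108 more negative (1.33%). DESeq2 called 63, all among the 181. Leaving out 1 channel at a time gave 33 to 288 calls, the lowest without spleen channel 2. Of the 42 named genes past the threshold, 27 lost their call without spleen channel 2, 18 without spleen channel 1 and 15 without the barcodes that held germinal centre transcripts.

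USP36 had a tissue difference of 4.71 ± 0.18 against 3.11 ± 0.13 and an interaction of 1.62 ± 0.23 (adjusted p = 0.00093) that held in every alternative. In the positioning list 5 of 17 tested genes had the more positive difference in IGHM-negative cells, CCR6, GPR183, CD44, CREM and ITGA4. For CCR6 and ITGA4 the tissue difference in IGHM-negative cells did not pass the test (−0.11 ± 0.31 and 0.17 ± 0.16). Both were lower in meninges in IGHM-positive cells (−1.70 ± 0.19 and −0.71 ± 0.12). Without the marker GPR183, 4 of 16 tested genes of the list had the more positive difference. Without spleen channel 2 those 4 lost their call. CD44, at 468 and 428 CPM against 102 and 99.3 CPM in IGHM-negative and 243 and 210.4 CPM against 104 and 117 CPM in IGHM-positive cells, had an interaction of 1.12 ± 0.16 (adjusted p = 0.000936) and of 1.02 (adjusted p = 0.0808) without spleen channel 2. For CREM it was 0.96 ± 0.18, and 0.91 (adjusted p = 0.22) without that channel. CD86 had 1.18 ± 0.22, and 1.32 (adjusted p = 0.0825) without it and 1.07 (adjusted p = 0.0631) without spleen channel 1. For CENPF the interaction was 1.73 ± 0.26, and 1.5 (adjusted p = 0.0855) without spleen channel 2.

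The tissue differences of the 4 markers are given side by side as a description. For GPR183 it was 4.09 ± 0.12 in IGHM-negative and 2.83 ± 0.12 in IGHM-positive cells, and for ZNF331 5.28 ± 0.27 and 3.88 ± 0.18. For DUSP4 it was 4.83 ± 0.36 and 4.11 ± 0.42, and for RGS16 4.45 ± 0.27 and 4.55 ± 0.36. GPR183 and ZNF331 had the larger value in IGHM-negative cells, while for DUSP4 and RGS16 the ranges of 1 standard error overlapped. By the interaction test GPR183 was past the threshold, and ZNF331, DUSP4 and RGS16 were not. The markers were chosen with results of these data known, so these outcomes are not independent support.

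CD72 had an interaction of the other sign. It was lower in meninges than in spleen in IGHM-negative cells (−3.02 ± 0.29) and higher in IGHM-positive cells (0.48 ± 0.12), an interaction of −3.49 ± 0.30 (adjusted p = 9.22e-06). FCRLA went the same way, at −1.99 ± 0.21 against 0.55 ± 0.11 (interaction −2.53 ± 0.21, adjusted p = 9.22e-06). CD79B was at −1.02 ± 0.11 against 0.29 ± 0.12 (interaction −1.29 ± 0.12, adjusted p = 1.93e-05) and VPREB3 had an interaction of −2.49 ± 0.25. These 4, with STMN1 (−1.53 ± 0.19) and ZFP36L1 (−1.19 ± 0.15), held in every alternative. In the meningeal IGHM-positive cells, 4 of 5 tested early B-lineage genes were higher than in spleen, among them VPREB3 (1.05 ± 0.13) and SOX4 (2.52 ± 0.22). The part of such cells in these interactions was not tested.

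The metallothioneins were higher in meninges in both classes, and far more so in IGHM-positive cells. MT2A was at 242 and 190.1 CPM against 41.0 and 47.5 CPM in IGHM-negative and at 959 and 1891 CPM against 23.3 and 23.3 CPM in IGHM-positive cells, with an interaction of −3.59 ± 0.38 (adjusted p = 6.94e-05). MT1E had an interaction of −5.53 ± 0.38 (adjusted p = 1.11e-06), which was −1.58 (adjusted p = 0.325) when 1 UMI of MS4A1 was enough to enter the gate. DEPP1, with 3 UMIs in the meningeal IGHM-negative cells, was at −4.93 ± 0.57 and at −10.58 without meninges channel 2.

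**Figure D5:**
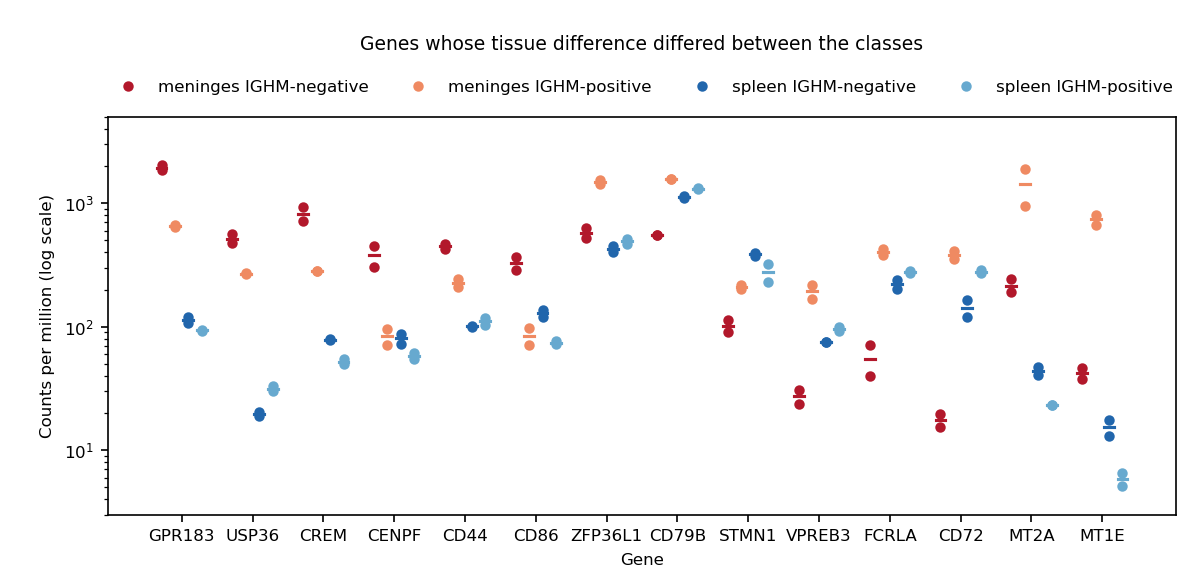
Levels of 14 genes, the marker GPR183 as a description and the others with a tissue difference that differed between the classes by the test, in CPM on a log scale; each point is 1 channel and each bar the mean of 2 channels. GPR183 and USP36 are highest in meningeal IGHM-negative cells, and CD72, FCRLA and VPREB3 are lowest there while meningeal IGHM-positive cells are highest.

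For most immediate early genes and brakes the interaction did not pass the test. Of 21 tested immediate early genes, ZFP36L1 was more negative in IGHM-negative cells, as above. ZFP36, an mRNA-destabilising protein, was just past the threshold at 0.64 ± 0.16 (adjusted p = 0.0497), and at 0.42 (adjusted p = 0.182) without meninges channel 1, 0.60 (adjusted p = 0.336) without spleen channel 1 and 0.70 (adjusted p = 0.289) without spleen channel 2. MYC, at −1.29 ± 0.32 (adjusted p = 0.0497), was at −1.08 (adjusted p = 0.0819) without meninges channel 1, −1.11 (adjusted p = 0.361) without spleen channel 1 and −1.5 (adjusted p = 0.215) without spleen channel 2. None of the tested brakes, 14 with the 2 markers and 12 without them, passed by edgeR or DESeq2, with 3 of the 14 at an unadjusted p under 0.05. FOS differed between the tissues by 5.15 ± 0.18 in IGHM-negative and 4.74 ± 0.15 in IGHM-positive cells (interaction 0.40 ± 0.23, adjusted p = 0.469), and EGR1 had an interaction of 0.00 ± 0.49. NR4A1 (1.01 ± 0.26, adjusted p = 0.0542) and SOCS3 (1.79 ± 0.45, adjusted p = 0.0508) were close to the threshold. By an unadjusted p under 0.05, 14.1% of all genes had an interaction. For the memory genes S100A4 (0.44 ± 0.21, adjusted p = 0.361) and CRIP1 (0.03 ± 0.17, adjusted p = 0.969) the class difference was seen in both tissues. In spleen S100A4 was at 438 and 515 CPM in IGHM-negative against 119 and 108 CPM in IGHM-positive cells.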

How the data were processed

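Single-cell libraries of macaque meninges and spleen, 2 channels for each tissue, were read from the deposited tables of raw UMI counts per gene and barcode, which the authors made from their reads. The submitters' processing notes name Cell Ranger and the mouse build mm10 for the series. For the macaque alignment, the reference was not given in the sources used here. Altogether the tables list 14949 genes, 2521 of them by identifier only. No sequence is printed, and the mouse libraries were not used here.

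Barcodes were gated on raw counts, with genes missing from a table counted as 0, and no doublet caller was run. Counts were summed per channel and class. Comparisons used edgeR 4.0.16 in R 4.3.3 with TMM scaling, filterByExpr, the quasi-likelihood F-test (two-sided) and Benjamini-Hochberg adjustment over all genes tested, with genes of the gate left out, at a threshold of 0.05. The tissue comparison used the 4 sums of 1 class. The class comparison and the interaction used all 8 sums, with the channel as a block. Levels in CPM are from the fit to the 8 sums, and CPM are printed with TMM scaling. DESeq2 1.42.0 was an alternative. On simulated counts, 4-fold changes were recovered in 96.8% of cases for the tissue comparison (6263 genes) and 84.2% for the class comparison (7779 genes), and 2-fold changes in 56.8% and 40.2%. Intervals are exact binomial at 95%, from scipy 1.17.1. UMIs count molecules, and intervals and floors cover counting error only.

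Named genes are, per comparison, among the 12 largest rises and 12 largest falls (6 and 6 for the interaction) that passed the test with channels not overlapping and log2 CPM averaging 5 or more, plus the 4 markers and members of 28 gene lists in order of size, and any at 0 or opposed to the rest. Some genes are not reported here and were taken out of the lists without regard to their values. The members, markers and lists were chosen with earlier results of these data known. The barcodes left out for UMIs of other cell types or germinal centre genes, and the library totals, are alternatives chosen after seeing the data, as are the list counts without the markers.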

Additional observations from a re-analysis of the deposited data

Results flagged for a closer look

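For 42 named genes the tissue difference between meninges and spleen differed between IGHM-negative and IGHM-positive B cells by the interaction test (edgeR, adjusted p under 0.05), given as log2 of the first over the second. Of surface and adhesion genes, the values were 1.28 for GPR183, a marker chosen with results of these data known and given as a description, 1.57 for CCR6, 1.12 for CD44, 0.91 for ITGA4, 1.18 for CD86, 1.28 for TNFRSF1B, −2.43 for ICAM1 and −0.94 for CD38. For CCR6, ITGA4 and ICAM1 the tissue difference in IGHM-negative cells did not itself pass the test. In IGHM-positive cells it was −1.70, −0.71 and 1.78 for these genes. Over the alternatives, 10 of the 42 kept their call in each one that gave a value: CD72, CD79B, DEPP1, FCRLA, GPR183, MT2A, STMN1, USP36, VPREB3 and ZFP36L1. Leaving out a channel ended the call of 29, and 27 of these lost it without spleen channel 2. Besides the same 10, those still past the threshold without that channel were CEMIP2, GADD45B, MKI67, MT1E and TYROBP. Without spleen channel 1, 18 lost their call, without the barcodes that held germinal centre transcripts 15, and without those that held other cells' UMIs 13. DESeq2 gave a value for 39, of which 16 did not pass.

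Of genes of the B-cell receptor and of naive or early B cells, the values were −3.49 for CD72, −1.29 for CD79B, −2.53 for FCRLA, 1.0 for DAPP1, −2.41 for BACH2, −1.05 for FCRL1, −1.26 for FOXP1, −2.49 for VPREB3 and −0.95 for TOP2B. Of transcription and mRNA regulators they were 0.96 for CREM, 0.64 for ZFP36, −1.19 for ZFP36L1, −1.29 for MYC and −1.49 for GADD45B. FOXP1 and GADD45B had a tissue difference of −0.04 ± 0.31 and 0.12 ± 0.15 in IGHM-negative cells, against 1.25 ± 0.14 and 1.62 ± 0.12 in IGHM-positive cells. Of cytokines and stress, secretion and metabolic genes the interaction values were 1.56 for CCL5, 1.42 for TGFB1, −1.25 for DERL3, −0.66 for HERPUD1, −0.56 for HSP90AA1, 0.72 for TPI1, −5.53 for MT1E and −3.59 for MT2A.

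Of cell cycle genes they were 1.73 for CENPF, −2.43 for MKI67, −1.03 for HMGB2, −1.53 for STMN1 and −2.82 for CDK6. The other values were 1.97 for CEMIP2, 1.82 for NUFIP1, 1.72 for CCNH, 1.62 for USP36, 1.60 for TYROBP, −4.93 for DEPP1 and −2.63 for FAM81A. TYROBP, a signalling adaptor of NK and myeloid cells, had a value of −0.43 without the barcodes that held at least 2 UMIs of other cell types.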

How the results depend on the processing

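For the tissue comparison in IGHM-negative cells, DESeq2 called 595 genes and the sums without barcodes holding germinal centre transcripts 640, against 1417, and leaving out 1 channel gave 969 to 1246. For the class comparison DESeq2 called 344 against 898, and leaving out 1 channel gave 660 to 832. For the interaction, against 181, DESeq2 called 63, no filter on low counts 308, an MS4A1 minimum of 1 UMI 291, leaving out the deepest 5 percent of barcodes 327, thinning 499, an IGHM minimum of 3 UMIs for the positive class 277, leaving out germinal centre barcodes 97, leaving out barcodes with other cells' UMIs 104, and leaving out 1 channel 33 to 288. Leaving out a channel leaves 1 arm with a lone channel, which is assumed to vary like the others. With library totals the class comparison gave 967 calls with 45.5% higher, against 56.5% with TMM.

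The labels do not say whether the channel numbers pair the samples of the 2 tissues. The channel differences of the 2 tissues correlated at −0.04 over all genes tested, which cannot exclude a pairing that shows in few genes. With the number as a replicate block the tissue comparison called 1531 genes, and without the block the class comparison called 880 and the interaction 127.

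The mean share of B cells with no IGHM UMI was 25.8% in meninges and 28.9% without barcodes holding other cells' UMIs. In spleen it was 17.0%, and 17.4% with at least 500 detected genes, 16.9% and 17.7% with MS4A1 minimums of 1 and 3 UMIs, 17.0% without the deepest barcodes, 28.9% thinned, 14.6% without germinal centre barcodes and 17.4% without barcodes with other cells' UMIs.

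Genes left without a tested value under an alternative are not counted here for that alternative. Of the values of single named genes over the alternatives, 1741 of 1861 kept direction and call in the tissue comparison, 1637 of 1776 in the class comparison and 654 of 790 in the interaction. Those that changed sign were, in the tissue comparison, CD38 thinned (0.054) and, without germinal centre barcodes, GAPDH (0.26) and HBA (−0.091). In the class comparison they were CST3 with MS4A1 minimums of 1 (0.69) and 3 (1.44), with an IGHM minimum of 3 (1.62) and without meninges channel 1 (1.81, against −3.49 without meninges channel 2), MKI67 thinned (1.67) and JCHAIN without germinal centre barcodes (−0.82). In the interaction they were TYROBP thinned (−0.10) and without barcodes with other cells' UMIs (−0.43), and MKI67 thinned (0.41). Where the construction of an alternative does not show it, the cause was not tested.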

Other observations

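Survival and stress genes differed in both directions between IGHM-negative and IGHM-positive meningeal B cells, with 3 rises and 4 falls among 13 tested. BCL2A1, an inhibitor of cell death, rose by 0.98 ± 0.11 on the log2 scale (507 and 589 CPM against 244 and 312 CPM), and GADD45A, a stress sensor, by 1.48 ± 0.24 (105 and 121 CPM against 50.3 and 32.2 CPM). Among plasma cell and secretion genes 2 of 10 tested fell and 1 rose, and DERL3, which acts in endoplasmic reticulum protein quality control, was at −1.35 ± 0.21.

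Heat shock genes had 2 rises among 13 tested in that comparison, 8 without meninges channel 2, and 1 rise and 3 falls without meninges channel 1. JCHAIN was at 0.71 in the same comparison, at 1.09 without meninges channel 1 and at 0.29 without meninges channel 2, where it was no longer past the threshold.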
